A study of Mus musculus with 6 samples.

Results

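Cells meet DNA damage with a division of labour. The checkpoint kinases Atm and Atr sense breaks and stalled forks and signal through Chek2 and Chek1. Homologous recombination copies a broken end from the sister chromatid, end joining ligates broken ends directly, mismatch repair corrects replication errors, and the excision pathways remove damaged bases or bulky lesions. Embryonic stem cells cycle fast with a short G1 phase and are known for a strong reliance on homologous recombination.

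Levels of 41 mouse DNA damage response and repair genes, selected by symbol from a fixed list, were taken from the deposited FPKM table. FPKM is the number of fragments scaled to transcript length in kilobases and to 1000000 counts. Rows were found for 39 of the 41 genes, out of 18312 genes in all, and Msh6 and Ddb1 were not analysed here. The study was made to find mRNAs bound by Brf1 (gene Zfp36l1) and Brf2 (gene Zfp36l2), zinc finger proteins that recognise AU-rich elements downstream of the coding sequence. It used wild-type E14 embryonic stem cells, an established line of 129/Ola background, in 15% serum with LIF at 1000 U/ml. The labels give 6 libraries from cytoplasmic extract in 3 groups of 2: total RNA with no antibody, RNA pulled down by an antibody that recognises Brf1 and Brf2, and a background pull-down by rabbit IgG.

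The table holds a single profile of 22625281 counts, and no column names a library. No value was therefore assigned to a group, no comparison between groups was made, and there are no replicates. A level below describes this profile only, which may hold precipitated RNA, and is a measure neither of binding nor of a response to damage. Of the 8 embryonic stem cell markers checked, all 8 had at least 1 FPKM, from Klf4 at 13.9 to Pou5f1 at 605. Of 5 measured fibroblast markers 2 reached that level, Thy1 at 3.74 and Tagln at 125.1, and of 4 measured primitive endoderm markers 1 did, Dab2 at 3.05. Bounds in parentheses after an FPKM are those of the authors' table and cover counting error only.

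All 39 genes had at least 1 FPKM, against 56.0% of all genes in the table (on the model length, used further on, the background is 58.2%). They ran over a 32.5-fold range, from Ddb2 at 3.33 FPKM (2.85 to 3.81, 190 counts) to Apex1 at 108 (105 to 112, 3930 counts). Their median was 10.97 FPKM, beside 9.66 for all genes at 1 FPKM or more and 1.94 for all genes. Of the 39, 22 (56.4%) lay above that 9.66, 5 lay above the upper quartile of 24.6 and 2 lay below the lower quartile of 3.81. Levels of repair genes thus sat around the middle of the genes detected. At the higher threshold of 5 FPKM, 34 of the 39 passed, against 38.3% of all genes. The 39 genes held 81478 counts, 0.360% of the total, and Parp1 alone held 20.05% of these. The RNA came from many cells, so more RNA per cell and more cells holding a transcript cannot be told apart.

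Medians of the listed genes differed between roles, and they describe these few genes rather than the whole pathways. The median was 19.5 FPKM for the 6 base excision and single-strand break repair genes and 16.97 for the 6 checkpoint genes. It was 10.5 for the 3 Fanconi anaemia genes, 10.01 for the 2 mismatch repair genes and 9.36 for the 13 genes of homologous recombination. The lowest medians were those of end joining, 5.97 over 5 genes, and nucleotide excision repair, 4.87 over 4 genes. On the model length the order was the same but for these last 2, with nucleotide excision repair at 8.62 and end joining at 7.25. The other genes of the same pathways, described below, had another order. Their median was 8.89 over 17 base excision genes and 20.3 over 16 nucleotide excision genes, the highest of the roles, while end joining was again low at 3.03 over 7 genes.

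**Figure D1:**
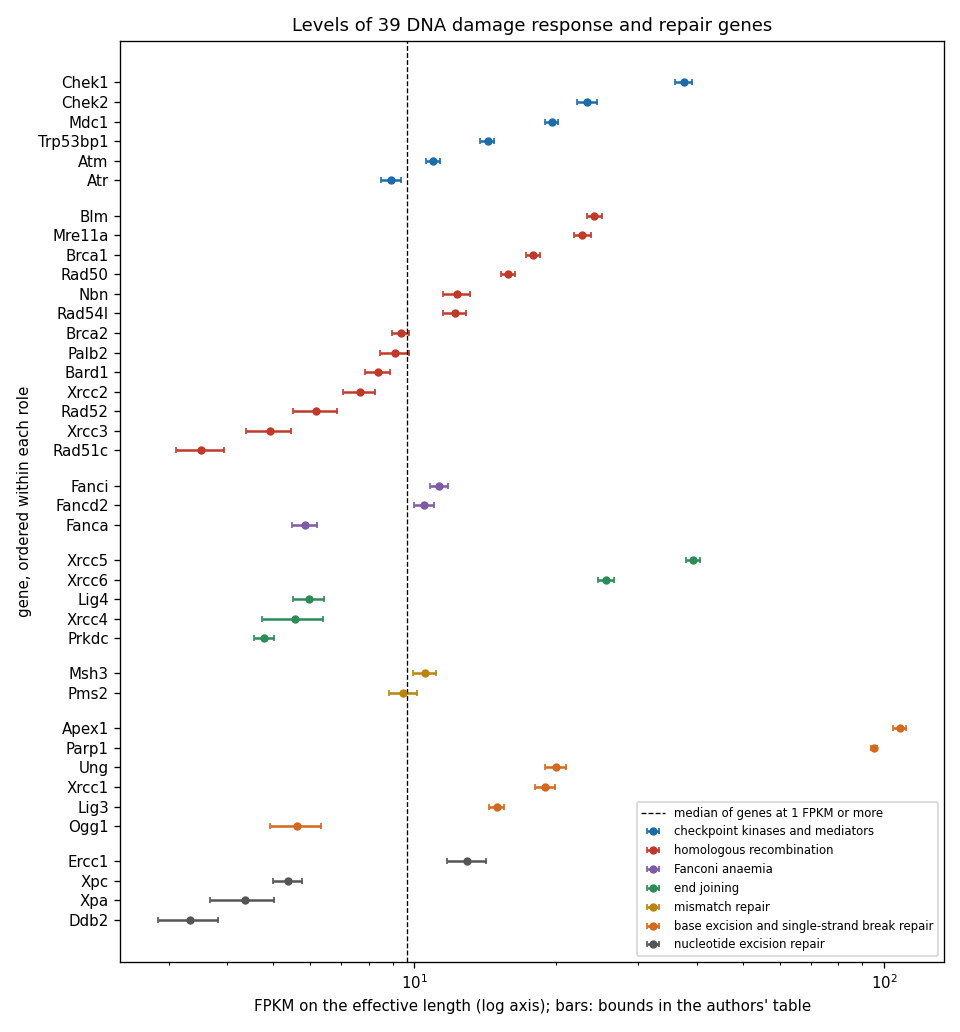
FPKM of each of the 39 genes on a log axis, grouped and coloured by role, with the bounds of the authors' table as bars; the dashed line is the median of genes at 1 FPKM or more (9.66). Apex1 and Parp1 stand above the rest, and Ddb2 and Rad51c are the lowest.

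In the order of levels, 32 of the 38 pairs of neighbours had overlapping bounds. The 6 places where neighbours were apart came after Apex1, after Parp1, after Chek1, after Mre11a, after Brca1 and after Xrcc2. Apex1 and Parp1 were thus set off from Xrcc5, the next gene at 39.2 FPKM, while most genes between 3 and 20 FPKM had bounds that overlapped those of the next gene.

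AU-rich elements are the sites that Brf1 and Brf2 are known to bind, so the 3′ untranslated regions of the 39 genes were searched for TATTTAT on the sense strand, with overlapping matches counted. The longest region of each gene in GENCODE M21 was used. TATTTAT was present in 4 of the 39 genes (10.3%), against 29.1% of 17493 genes of the table with such a region and 30.8% of those at 1 FPKM or more. The 4 genes were Trp53bp1, Bard1, Palb2 and Rad51c. Their sites are shown because they are the only matches found in these regions, with the motif in capitals and 10 bases on each side:
Trp53bp1: ctgggtatagTATTTATtatagtctag
Bard1: ttttttttttTATTTATttaaaaataa
Palb2: tgttaataaaTATTTATtttgatacat
Rad51c: tgtagattatTATTTATatctacgttt

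On GRCm38 all 4 motifs lie on the minus strand in the last exon of the transcript used. They are at chr2:121196206-121196212 for Trp53bp1 (exon 28), chr1:71029902-71029908 for Bard1 (exon 11), chr7:122107274-122107280 for Palb2 (exon 13) and chr11:87376699-87376705 for Rad51c (exon 9). The Bard1 site is the only one of the 4 that lies within the longer match TTATTTATT. The sites of Bard1 and Palb2 were also in the annotated transcript nearest in length to the model behind the FPKM. For Trp53bp1 and Rad51c no such transcript lay within 10% of the model length, so whether their models reach the site was not settled.

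Short regions went with the low count. The median region was 579 nt for the 39 genes and 1185 nt for genes at 1 FPKM or more. Per kilobase of region, TATTTAT occurred 0.0962 times in the 39 genes and 0.290 times in genes at 1 FPKM or more, so the density was lower too. The shorter pentamer ATTTA did not share this pattern, at 1.95 and 1.84 per kilobase, and was present in 25 of the 39 genes (64.1%) against 71.0% of genes at 1 FPKM or more. Among 95 other repair genes with a region, described below by role, 28 (29.5%) had TATTTAT. The 4 genes with the motif ran from 3.52 to 14.3 FPKM (median 8.74), inside the range of the 35 without it, 3.33 to 108 (median 11.3).

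A second sequence feature was looked for in the promoters, since many genes of DNA replication and repair are known targets of the E2F factors, which switch on genes for S phase. RefSeq promoter windows on GRCm38.p6, from 250 bases before to 50 after each start, were available for 32 of the 39 genes. The E2F motifs TTTCCCGC, TTTCGCGC, TTTGCCGC and TTTGGCGC were searched on both strands, and matches may overlap. A match was present for 7 of the 32 genes (21.9%), against 3.46% of 14581 genes of the table with a window, 5.14% of those at 1 FPKM or more and 7.41% of 81 other repair genes. The 7 were Chek2, Mdc1, Brca2, Bard1, Rad51c, Xrcc6 and Msh3. One window is shown for each role in which a match occurred, 5′ to 3′ on the gene's strand, with the bases of 1 match in capitals:
Mdc1: cttcagcctgTTTCCCGCcggtagccgc
Bard1: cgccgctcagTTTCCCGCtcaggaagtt
Xrcc6: gggggtggaaGCGGGAAAtgcgagtggg
Msh3: tgccgtcaagTTTGGCGCgaaatcgcag

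The matched bases lie at chr17:35841482-35841489 for Mdc1, chr1:71103174-71103181 for Bard1, chr15:82016323-82016330 for Xrcc6 and chr13:92355198-92355205 for Msh3. In Xrcc6 the match is the reverse complement, GCGGGAAA for TTTCCCGC. The Msh3 window also holds GCGCGAAA, the reverse complement of TTTCGCGC, at chr13:92355194-92355201, overlapping the match in capitals. No match was found for the 6 base excision genes, for Fanca or Fanci, or for the 2 nucleotide excision genes with a window, which says only that these letters are not in those windows. Genes with a match ran from 3.52 to 25.6 FPKM (median 10.5, n = 7) and those without from 4.35 to 108 (median 12.2, n = 25), so a match did not mark the higher genes. Bard1 and Rad51c carried both an E2F match and a TATTTAT site.

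Among checkpoint genes, the downstream kinases were higher than the kinases that activate them. Chek1, which is activated by Atr and holds the cell cycle when replication stalls, had 37.5 FPKM (35.8 to 39.1). Chek2, which is activated by Atm at breaks, had 23.4 (22.2 to 24.5). Atm itself had 10.97 (10.6 to 11.3) and Atr 8.94 (8.52 to 9.36). The adaptors lay between, with Mdc1, which binds phosphorylated histone H2AX, at 19.6 FPKM and Trp53bp1, which favours end joining over resection, at 14.3. The order of Chek1 and Chek2 turned on the length used. The effective length, by which the authors' FPKM was scaled, was 0.718 times the model length for Chek1 and 1.38 times for Chek2. Per effective length Chek1 was 1.60 times Chek2 (95% counting interval 1.503 to 1.71), and per model length it was 0.836 times (0.783 to 0.892), with Chek1 at 26.9 and Chek2 at 32.2. On both scales each was above Atm and Atr. The Atm to Atr ratio was 1.23 (1.16 to 1.30), and that of Mdc1 to Trp53bp1 was 1.37 (1.31 to 1.43).

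Of 17 other checkpoint genes on a fixed list, 15 were measured, all at 1 FPKM or more (median 15.03). For such counts by role, here and below, the share over all genes was 56.0%. The highest was Rif1, a Trp53bp1 partner that also times replication, at 105 FPKM, and the lowest was Atrip, the obligate partner of Atr, at 5.003 (4.53 to 5.48). Atr and its partner were thus both low beside Chek1.

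The 13 homologous recombination genes spanned 3.52 to 24.2 FPKM, with a median of 9.36, and 6 of them lay above the median of genes at 1 FPKM or more. Blm, the helicase that dissolves recombination intermediates, was the highest at 24.2 (23.3 to 25.1), with bounds that overlapped those of Mre11a. On the model length Mre11a was the highest, at 33.4 against 29.9 for Blm. By FPKM the break-end complex of Mre11a, Rad50 and Nbn came next after Blm, with Brca1. Mre11a, its nuclease, had 22.8 FPKM (21.8 to 23.8), Rad50, its ATPase, 15.8 (15.3 to 16.4), and Nbn, which recruits Atm, 12.3 (11.5 to 13.2). Their transcripts were therefore unequal in this profile, with Mre11a 1.85 times Nbn (1.71 to 1.99) and Rad50 0.694 times Mre11a (0.658 to 0.731). Per model length Rad50 was 0.891 times Mre11a (0.845 to 0.939), since the effective length of Rad50 was 1.88 times its model.

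Brca1, the ubiquitin ligase that promotes resection, had 17.9 FPKM (17.3 to 18.5), and its obligate partner Bard1 had 8.38 (7.87 to 8.89), a ratio of 2.14 (2.00 to 2.29). Brca2, which loads the recombinase on single-stranded DNA, and Palb2, which links it to Brca1, were nearly equal instead. Brca2 had 9.36 FPKM (8.98 to 9.75) and Palb2 9.10 (8.46 to 9.73). Their ratio was 1.03 (0.951 to 1.11), an interval that holds equality but covers counting error only. Bard1 and Palb2, for which the annotated transcript nearest in length holds the TATTTAT site shown above, were at neither extreme of the group.

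Rad54l, a DNA translocase of strand invasion, had 12.2 FPKM (11.5 to 12.9), above the median of the 13 genes. The lowest 4 by FPKM were Rad52 and the recombinase paralogs. Xrcc2 had 7.66 FPKM (7.06 to 8.27), Rad52 6.18 (5.51 to 6.84), Xrcc3 4.93 (4.40 to 5.46) and Rad51c 3.52 (3.11 to 3.94). Xrcc3 and Rad51c form a complex, and Xrcc3 was the higher by 1.40 times (1.20 to 1.64). Rad51c rested on 290 counts. Of 25 other recombination genes 21 were measured, all at 1 FPKM or more, and their median of 10.03 was close to that of the 13. The highest was Swi5, which stabilises recombinase filaments, at 207 FPKM on a model of 768 nt. The lowest was Rad51l1, another recombinase paralog, at 1.08 FPKM with 55 counts. A recombinase paralog was thus the lowest recombination gene in each of the 2 lists.

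Of the Fanconi anaemia genes, which act at crosslinks, the partners Fancd2 and Fanci were close. Fancd2 had 10.5 FPKM (10.01 to 11.03) and Fanci 11.3 (10.8 to 11.8), a ratio of 0.930 (0.872 to 0.992). Fanca, of the core complex that ubiquitinates them, was lower, at 5.85 (5.48 to 6.21). Of 14 other genes of the pathway 11 were measured, and all 11 passed 1 FPKM (median 8.43). They ran from Fan1, a nuclease, at 1.60 to Usp1, which removes the ubiquitin, at 49.4. A processed pseudogene, Gm5841, matches the Usp1 model over 2178 bases at 97.9% identity, so that value is uncertain.

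End joining split into an abundant and a low part. Xrcc5 and Xrcc6, the Ku subunits that bind broken ends, had 39.2 FPKM (37.9 to 40.5) and 25.6 (24.6 to 26.7), ranks 3 and 5 of the 39 genes. Their ratio was 1.53 (1.45 to 1.61), and 1.23 (1.17 to 1.30) per model length. Prkdc, the DNA-dependent protein kinase that Ku recruits, had 4.79 (4.56 to 5.02), which was 0.122 times Xrcc5 (0.115 to 0.129) and the widest gap among the pairs compared. The ligation step was low too, with the ligase Lig4 at 5.97 FPKM (5.51 to 6.44) and its scaffold Xrcc4 at 5.57 (4.74 to 6.39, 183 counts). Their ratio was 0.932 (0.792 to 1.098). Per model length it was 0.722 (0.613 to 0.850), an interval that no longer holds equality. The 7 measured of 9 other end joining genes stayed in the low range, with a median of 3.03. Aplf, an adaptor at Ku, was the highest at 5.42 and Dclre1c, the Artemis nuclease, the lowest at 2.40. None of the 7 reached the median of genes at 1 FPKM or more, so Xrcc5 and Xrcc6 were the only 2 of the 12 end joining genes measured above it.

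**Figure D2:**
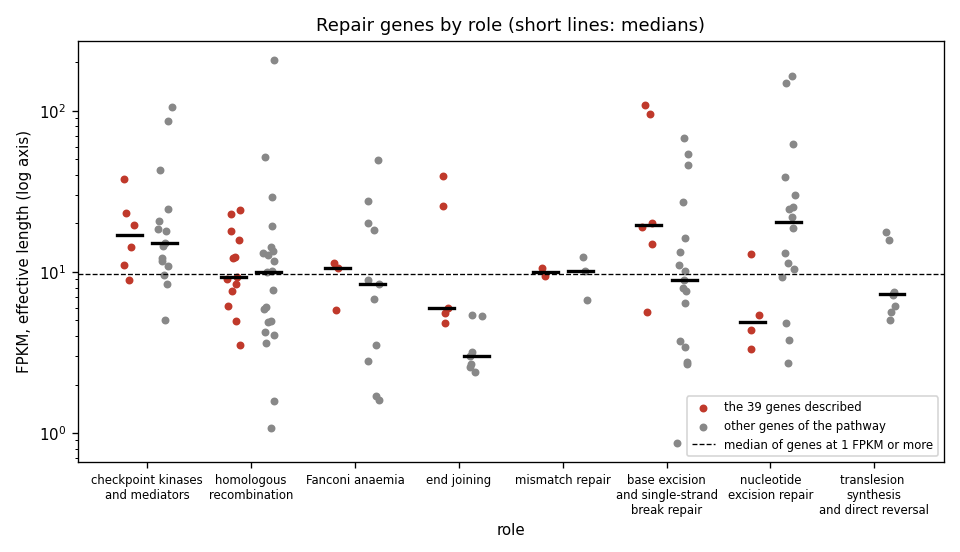
FPKM on a log axis for the 39 genes (red) and 98 other genes of the same pathways (grey) by role, with short lines at the medians and a dashed line at the median of genes at 1 FPKM or more. End joining holds 2 high genes above a low group, and base excision has the widest spread of the 39 genes.

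Mismatch repair was represented by Msh3, which recognises larger loops, at 10.5 FPKM (9.96 to 11.1), and the endonuclease Pms2 at 9.48 (8.84 to 10.1). Both sat near the median of genes at 1 FPKM or more. The 3 other genes measured of 4 listed had a median of 10.2, from Mlh3 at 6.70 to Pms1 at 12.4.

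The 2 most abundant transcripts of the 39 belonged to base excision and single-strand break repair. Apex1, the endonuclease that cuts at sites without a base, had 108 FPKM, and Parp1, which senses strand breaks and makes poly(ADP-ribose), had 95.3 (93.8 to 96.8, 16334 counts). On the model length their order was the other way, with Parp1 at 189 and Apex1 at 133. In the annotation 877 bases (70.8%) of the Apex1 transcript overlap exons of Tmem55b on the opposite strand. Tmem55b had 29.7 FPKM in the table, and the part of its reads in the Apex1 count was not tested. The glycosylase Ung, which removes uracil, had 20.01 FPKM (19.03 to 21.0), and Ogg1, which removes oxidised guanine, had 5.64 (4.93 to 6.34). Ung was thus 3.55 times Ogg1 (3.11 to 4.05), and per model length 5.14 times (4.51 to 5.87). The scaffold Xrcc1 and its ligase Lig3 were closer, at 19.02 (18.1 to 19.96) and 15.01 (14.5 to 15.6), a ratio of 1.27 (1.19 to 1.35). Exons of Rffl cover 30.7% of the Lig3 transcript on the opposite strand, though only 7.60% by the Rffl transcript nearest its own model, and Rffl had 6.07 FPKM.

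Of 18 other genes in this role 17 were measured, 16 of them at 1 FPKM or more (median 8.89). The highest was Tdg, the thymine glycosylase also known from active DNA demethylation, at 67.6 FPKM. Its processed pseudogene Tdg-ps matches the model over 2845 bases at 98.8% identity, so that value is uncertain. The lowest was Parp3, at 0.870 (0.662 to 1.08), the only gene under 1 FPKM among the 137 repair genes measured. On the model length Parp3 had 1.18 (0.894 to 1.46).

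Of the 4 nucleotide excision genes, 2 had at least 5 FPKM, against 38.3% of all genes. Only Ercc1 lay above the median of genes at 1 FPKM or more. Ercc1, a subunit of the nuclease that cuts on the 5′ side, had 12.98 (11.8 to 14.2). The damage sensors were lower, with Xpc at 5.38 (4.997 to 5.77), the verifying factor Xpa at 4.35 (3.68 to 5.02, 169 counts) and Ddb2, which finds ultraviolet lesions in chromatin, at 3.33 (2.85 to 3.81). Xpc was 1.24 times Xpa (1.05 to 1.46). The other genes of the pathway had a higher median. Of 18 other genes 16 were measured, all at 1 FPKM or more (median 20.3), and 12 of them lay above the median of genes at 1 FPKM or more. Rad23b, the partner of Xpc, was the highest at 164 FPKM, and Ercc4, the catalytic partner of Ercc1, was the lowest at 2.73. Several of these 16, such as the transcription factor subunits and Cul4b, also act outside repair. The 8 measured genes for bypass synthesis and direct reversal had a median of 7.29, from Alkbh2 at 5.05 to Rad18 at 17.8.

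Over all roles, 97 of the 98 other repair genes had at least 1 FPKM, against 56.0% of all genes. On the model length 98 did, against 58.2%. Their median of 10.2 FPKM was near that of the 39 genes. Of the 18 pairs of partners listed, 16 were measured and 13 of these lay within 2-fold. The 3 beyond it were Brca1 to Bard1, Prkdc to Xrcc5 and Ung to Ogg1. Per model length Mre11a to Nbn, at 2.05 (1.89 to 2.21), was beyond it as well. The 95% counting interval held equality for 2 of the 16, Brca2 to Palb2 and Xrcc4 to Lig4.

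**Figure D3:**
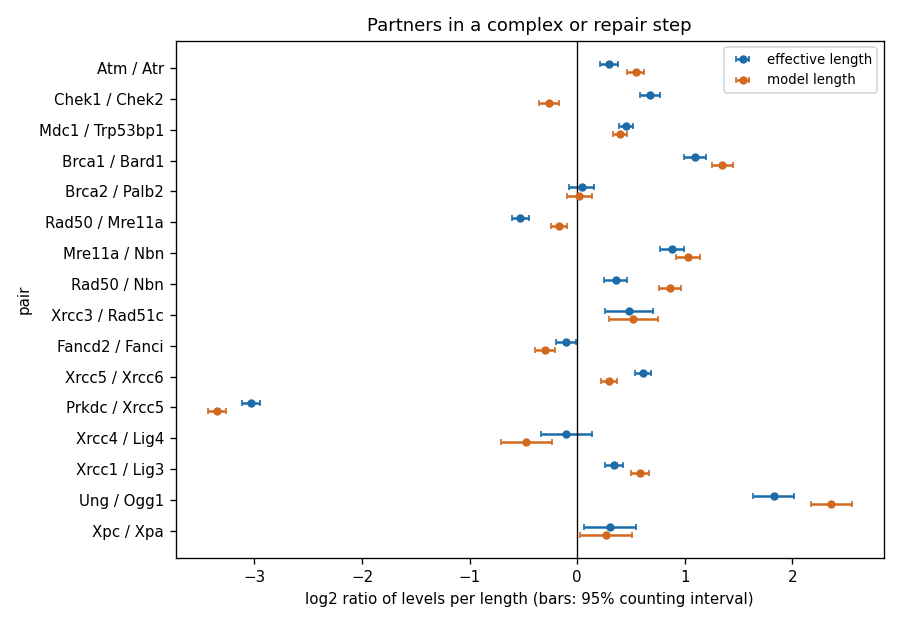
The log2 ratio of levels for 16 pairs of partners, per effective length (blue) and per model length (orange), with 95% counting intervals as bars. Prkdc lies far below Xrcc5 on both scales, and Chek1 to Chek2 is the pair whose sign differs between them.

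Counts followed transcript length, while FPKM did not. Across the 39 genes, which share 1 profile, Spearman's rho with model length was 0.55 for counts and 0.03 for FPKM. Atm had 3867 counts on a model of 11964 nt, the fourth highest count of the 39, and ranked 20 by FPKM. Prkdc had 1738 counts on 12674 nt and ranked 17 by count and 36 by FPKM. The 6 genes with models over 7000 nt, Atm, Atr, Mdc1, Trp53bp1, Brca2 and Prkdc, ran from 4.79 to 19.6 FPKM.

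The effective length raised or lowered each gene by its own factor. It was a median 1.33 times the model length for the 39 genes, against 1.27 for all genes. On the model length 35 of the 39 were above their FPKM bounds, 3 within and Chek1 alone below. The same count was not made over all genes. A factor above 1 raises the model-length value, and with a median of 1.27 most genes were raised, so this is not particular to the 39. The largest factors were 1.98 for Parp1, 1.96 for Xrcc6, 1.88 for Rad50 and 1.88 for Ung, and the smallest was that of Chek1. Across 33 of the 39 genes with a transcript near the model length, the factor and the transcript's GC content had a Spearman rho of 0.56 (0.68 across all genes with such a transcript), and Chek1 had the lowest GC, 39.4%. The factor of Xrcc4, 0.939, was the only other one below 1.

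**Figure D4:**
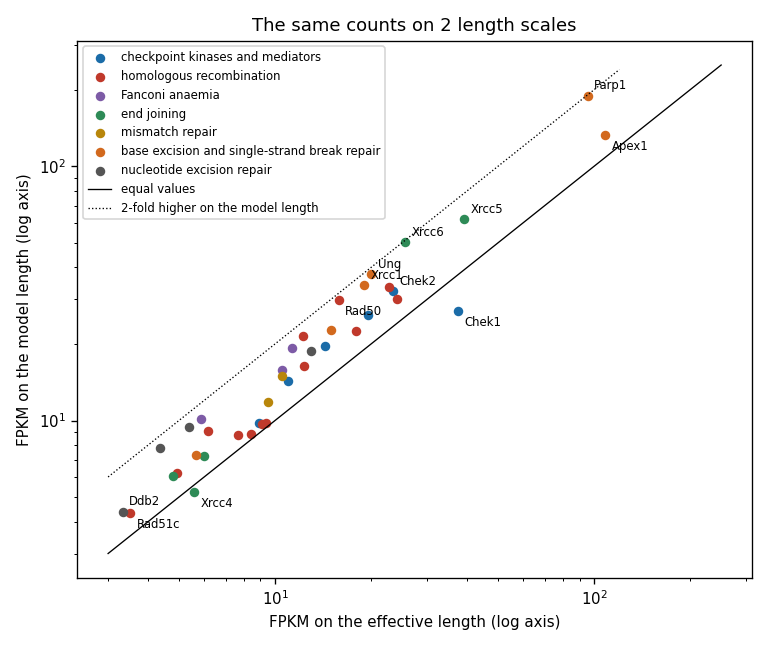
FPKM on the model length against FPKM on the effective length, both on log axes, for the 39 genes coloured by role, with lines at equal values and at 2-fold higher on the model length. Parp1 and Xrcc6 lie near the 2-fold line, and Chek1 lies furthest below the line of equal values.

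Neighbouring genes were checked because strand handling is not given in the sources used here, so reads of overlapping genes cannot be told apart. Of the same 33 genes, 12 had exons overlapping another annotated gene, 10 of them a protein-coding one, and all on the opposite strand. The overlap exceeded 10% of the transcript for Apex1, Lig3, Fanci (16.4%, with Polg at 26.1 FPKM) and Fanca (12.3%, with Zfp276 at 1.40 FPKM). By the Polg transcript nearest its own model, 8.57% of the Fanci transcript was covered. Matches of at least 150 bases at 95% identity or more in transcripts of another gene were found for 7 of the 33. For Apex1, Atr, Fanca, Fanci, Lig3 and Msh3 the match was such an overlapping neighbour. For Mdc1 the matches, in 12 genes, were at most 165 bases long.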

How the data were processed

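The submitters' processing notes name eXpress 1.1.1, Bowtie 1.1.2 and CASAVA 1.8.2 beside build mm9. What each did, and its settings, is not given in the sources used here. Per the file headers, the authors deposited read counts per transcript model, estimated counts corrected to the effective length, effective and model lengths in nucleotides, and FPKM with bounds. The total, unique and uncorrected estimated count columns were equal in all 18312 gene rows. FPKM was recomputed from the deposited counts to within 0.0173%. One row that names no gene, holding the sum of 22625281 counts, was left out.

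Model-length FPKM divides the same counts by the model length. Ratios of 2 genes carry a 95% normal interval on the log scale from Poisson counts (z = 1.96), for counting error only. The interval and motif code was tested on simulated data. 3′ untranslated regions of at least 50 nt came from GENCODE M21 (GRCm38), and a transcript within 10% of the model length stood in for the model. Similar transcripts were sought with BLAST 2.17.0.

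All members are named, with the highest and lowest other gene of each role and all listed pairs. The members and lists were chosen with earlier results of these data known. The E2F search and the overlap checks were added after values were seen. The planned limma comparison of groups was not run, since no column names a library. Alternatives were the model length, a threshold of 5 FPKM, a minimum of 10 counts, and other regions and motifs. Computation used Python 3.11.15 with pandas 2.3.3 and scipy 1.17.1 on numpy 2.4.6, and plots used matplotlib 3.10.9.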

Additional observations from a re-analysis of the deposited data

How the results depend on the processing

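No paired analysis was possible because no column of the table can be tied to a library. The planned replicate block, pseudocount and left-out libraries of the comparison with IgG were not run. With the model length the log2 ratio of Chek1 to Chek2 changed sign, from 0.68 to -0.26, and that of Xrcc4 to Lig4 went from -0.10 to -0.47, with an interval that no longer held equality. The other 14 pair ratios kept their direction and their side of equality. The median of the 39 genes was 15.8 FPKM on the model length. It was 10.97 FPKM, as with all 39, without the 10 genes found to overlap a protein-coding gene. Overlap was checked for 33 of the 39 genes only. Atm, whose level is this median, was not among those checked. At a threshold of 5 FPKM, which 38.3% of all genes reached, 2 of 4 nucleotide excision genes passed. So did 7 of 11 other Fanconi anaemia genes and 2 of 7 other end joining genes. The remaining counts by role stayed within 1.5 times, as all did with the model length and with a minimum of 10 counts. With the shortest annotated region TATTTAT was in 2 of the 39 genes (5.13%), against 21.2% of genes at 1 FPKM or more. With the longest region ATTTA was in 25 (64.1%, against 71.0%) and TTATTTATT in 1 (2.56%, against 8.41%). The E2F count was 7 of 32 with the first listed window as well (21.9%, against 4.55% of genes at 1 FPKM or more). With 1 profile no spread between libraries can be given, and Xpa, Xrcc4 and Ddb2, with under 200 counts each, have the widest bounds.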

Other observations

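Meiotic recombination genes, listed as a contrast to the mitotic repair genes, had a median close to that of all genes. Of the 10 genes, 6 passed 1 FPKM, against 56.0% of all genes, and their median was 1.92, against 1.94 for all genes. Spo11, which makes the meiotic breaks, had 4 counts and 0.0807 FPKM. Msh4 and Msh5, which stabilise crossover intermediates, had 0.130 and 0.128 FPKM, with 12 and 15 counts. The meiotic recombinase Dmc1 had 1.97 (1.62 to 2.32), and Hormad1, a chromosome axis protein, had 4.21. Sycp3, of the synaptonemal complex, was the highest of the 10 at 36.95 FPKM (34.3 to 39.6, 769 counts), a level near those of Chek1 and Xrcc5. On the model length Sycp3 had 30.3, near Chek1 at 26.9 but well below Xrcc5 at 61.8.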
